A study of Mus musculus with 16 samples.

Results

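The outer surface of the heart is covered by the epicardium, a single-layered mesothelium, and 7 genes that mark this layer were followed through 16 RNA-seq libraries of the mouse left ventricle: Upk3b, Upk1b, Msln, Lrrn4, Krt19, Wt1 and Gpm6a. The genes were picked by name from the 57143 gene rows of the deposited table, as known markers and with earlier results of these libraries in view, so their levels are given as a description and a test on them is no independent evidence of direction. All 7 were found, and each had at least 1 count in some library. The tissue came from male C57BL/6 mice in a model of myocardial injury after non-cardiac surgery. The model used abdominal surgery under sevoflurane, an inhaled anaesthetic. Tissue was taken at 0h, 3h, 24h and 7d, with 4 libraries at each time. Every library carries the surgery label, 0h included, and none is labelled as an unoperated control. The label alone does not show whether the 0h tissue was taken after the operation, so 0h is used here only as the earliest time. The labels name neither the age of the mice nor whether a library is 1 animal, so the spread between libraries may be partly technical.

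Mesothelial cells line the body cavities and wrap the organs within them as a thin, lubricated sheet that combines keratin filaments with features of mesenchymal cells. On the heart this sheet arises from the proepicardium, supplies fibroblasts and vascular mural cells in the embryo, and in the adult lies quiet but can reactivate fetal genes after injury. It forms a very small part of a ventricle by mass, so its transcripts are a small share of RNA from whole tissue. Uroplakins such as Upk3b and Upk1b are best known from the bladder surface but are also made by mesothelium, Msln encodes the cell-surface protein mesothelin, and Wt1 encodes a zinc-finger transcription factor of the developing epicardium.

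Total counts per library ran from 8313655 (0h replicate 3) to 12893551 (7d replicate 4), and the 4 libraries of 0h and of 24h held 39603835 and 40693012 counts in all. Ventricular markers (Myl2, Myh6, Myl3, Tnni3 and Actn2) summed to between 39763 and 49662 TPM (transcript abundance scaled to gene length and library total) in every library, which matches the labelled tissue. Marker lists of lung epithelium and of general epithelium summed to at most 0.306 and 0.332 TPM in any library. Of the urothelial markers, Upk3a and Krt5 had no count in any of the 16 libraries, and that list summed to between 0.215 and 3.03 TPM. Replicate 1 at 0h, among the deepest libraries, held the most adipocyte transcripts, 30.6 TPM over 6 genes. Replicates 2 and 3 at 3h held the most albumin (Alb) transcripts, 35.6 and 28.5 TPM against at most 5.42 elsewhere.

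Promoter sequence is shown for Upk3b and Lrrn4, which moved together across libraries. Both windows hold the core letters bound by TEAD factors, the DNA-binding partners of YAP in epithelial and epicardial cells. Each window is the 250 bases before the RefSeq start (build GRCm38.p6), 5′ to 3′ on the gene's strand, with the core in capitals. The Upk3b window is chr5:136038246-136038495 on the + strand and that of Lrrn4 is chr2:132880863-132881112 on the - strand.
Upk3b: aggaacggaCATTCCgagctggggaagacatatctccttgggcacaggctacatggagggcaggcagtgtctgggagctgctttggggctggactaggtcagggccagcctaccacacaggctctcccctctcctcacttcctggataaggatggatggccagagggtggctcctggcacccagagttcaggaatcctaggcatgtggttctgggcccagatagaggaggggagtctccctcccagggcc
Lrrn4: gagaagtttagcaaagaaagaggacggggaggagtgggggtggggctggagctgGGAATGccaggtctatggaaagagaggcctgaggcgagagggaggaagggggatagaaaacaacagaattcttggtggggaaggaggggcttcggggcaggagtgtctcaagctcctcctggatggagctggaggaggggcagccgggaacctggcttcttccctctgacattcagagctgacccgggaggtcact
The search was for GGAATG on both strands (CATTCC on the other), and the first base of the match lay at position 10 of the Upk3b window and at position 55 of the Lrrn4 window. These letters occurred in 12.6% of 32851 mouse promoter windows of the same length, so a match is common and is a description only. GATAA, the GATA factor core (22.6% of windows), occurred once in the Upk3b window and not in that of Lrrn4. Neither window held the GC box GGGCGG (32.7% of windows) or the TATA letters TATAAA (12.4%), each searched on both strands. RefSeq windows were matched for 3 of the 7 genes, and of the pair of Gpm6a windows 1 held GGAATG. The letters therefore did not set Upk3b and Lrrn4 apart from Gpm6a, and Msln had no window.

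Upk3b encodes a uroplakin and is among the most selective adult mesothelial markers. The gene lies at chr5:136038496-136046487 on the + strand (GRCm38) and overlaps no other annotated gene. Its level at 0h was 0.707, 2.66, 3.85 and 4.47 TPM in replicates 1 to 4, and at 3h it was 0.0817, 1.64, 0.78 and 1.23 TPM. At 24h the 4 libraries held 0.0688, 0, 0.166 and 0.242 TPM, and at 7d 0.506, 0.717, 0.282 and 0.0681 TPM. Every 24h library lay below every 0h library, while 3h and 7d each overlapped 0h through its replicate 1. The mean went from 2.92 ± 1.66 TPM at 0h to 0.932 ± 0.668 at 3h, 0.119 ± 0.106 at 24h and 0.393 ± 0.280 at 7d (SD, n = 4). In counts summed over 4 libraries this was 123, 42, 6 and 22, and the 0h to 24h ratio of depth-scaled counts was 21.1 (95% interval 9.41 to 58.5, counting error only). In a bulk sample, fewer mesothelial cells and less RNA per cell cannot be told apart.

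Fitted over all genes, at 24h Upk3b fell by 4.22 ± 0.76 on the log2 scale (SE; edgeR quasi-likelihood, adjusted p = 0.000937). At 3h the log2 fold change against 0h was -1.43 ± 0.51 (edgeR adjusted p = 0.0979), and it passed the threshold when 0h replicate 1 was left out (-1.83, edgeR adjusted p = 0.0271). With no filter it also passed at 3h without the robust option (edgeR adjusted p = 0.0277), with the earlier dispersion estimates (0.0113) and in a fit of the compared times alone (0.000936). With no filter it did not pass at 3h with the replicate block (edgeR adjusted p = 0.0501) or with Myl7 as a covariate (0.2659). DESeq2 and limma with no filter did not call it at 3h either (adjusted p = 0.2845 and 0.1419). At 7d Upk3b fell by 2.70 ± 0.58 (edgeR adjusted p = 0.0244). That 7d call rested on single libraries: the edgeR adjusted p was 0.0666, 0.0892 and 0.0643 without 0h replicates 2, 3 and 4, and 0.0793 without 7d replicate 3. It was also lost by limma on log2(TPM + 1), with adjusted p = 0.0866.

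Msln encodes mesothelin, a glycoprotein anchored in the mesothelial membrane and a binding partner of the mucin Muc16. It lies at chr17:25748613-25754378 on the - strand (GRCm38), with no overlapping gene. Msln measured 0.489, 1.37, 2.09 and 3.11 TPM in the 0h libraries and 0, 1.58, 0.699 and 0.505 TPM at 3h. Replicate 3 was the only 24h library with a read, 1 count or 0.0958 TPM, and the 7d libraries held 0.291, 0.525, 0.244 and 0.0784 TPM. All 24h libraries were below all 0h libraries, and the single lowest 0h library was again replicate 1. Summed counts were 65 at 0h, 27 at 3h, 1 at 24h and 14 at 7d, and the 0h to 24h ratio of depth-scaled counts was 66.8 with a counting interval of 11.6 to 2678. At 24h Msln fell by 5.43 ± 1.10 on the log2 scale (edgeR adjusted p = 0.00246), a fitted size that rests on that 1 count. Leaving out the library of 24h replicate 3 left no count at 24h, and the -7.06 then fitted depends on the prior. At 3h it was -1.12 ± 0.58 (edgeR adjusted p = 0.256). At 7d it was -2.40 ± 0.66 (edgeR adjusted p = 0.0773), which became -2.81 and past the threshold without 0h replicate 1 (edgeR adjusted p = 0.0398). With no filter the 7d value of Msln passed without the robust option (edgeR adjusted p = 0.0131), with the earlier dispersion estimates (0.00373) and in the compared times alone (0.0212). By DESeq2 with no filter it did not (adjusted p = 0.122).

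Lrrn4 encodes a leucine-rich repeat membrane protein first described in neurons and used as a mesothelial marker. Its locus is chr2:132868305-132880891 on the - strand (GRCm38). Lrrn4 was at 0.0672, 0.435, 0.812 and 0.796 TPM at 0h and at 0, 0.52, 0.247 and 0.167 TPM at 3h. It had no count in any 24h library and 1 count at 7d, in replicate 2 (0.0619 TPM). Summed counts were therefore 23, 11, 0 and 1 at the 4 times. With 24h set at a floor of 3 counts over its 4 libraries, 0h was 7.88-fold higher. This leaves out the counting error at 0h and the spread between libraries. Lrrn4 had too low a mean for the main fit, which took genes with a mean of 0.5 TPM or more. In the fit with no filter it was lower than at 0h both at 24h (edgeR adjusted p = 0.00439) and at 7d (edgeR adjusted p = 0.0354), and since the fitted fold against no counts depends on the prior it is not given as a size. In TPM the 24h and 7d libraries all lay below the lowest 0h library, but for 7d this set 1 count (0.0619 TPM) against 1 count (0.0672 TPM). In counts scaled to library size the order of those 2 libraries turned (CPM of 0.0802 at 7d and 0.074 at 0h). The 7d call was lost on leaving out any of 0h replicates 2 to 4 (edgeR adjusted p = 0.0814, 0.149 and 0.128), 3h replicate 4 (0.0512) or 7d replicates 1 to 4 (0.0775, 0.0594, 0.115 and 0.0649). It was also lost by DESeq2 (adjusted p = 0.0985) and by limma (adjusted p = 0.147).

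**Figure D1:**
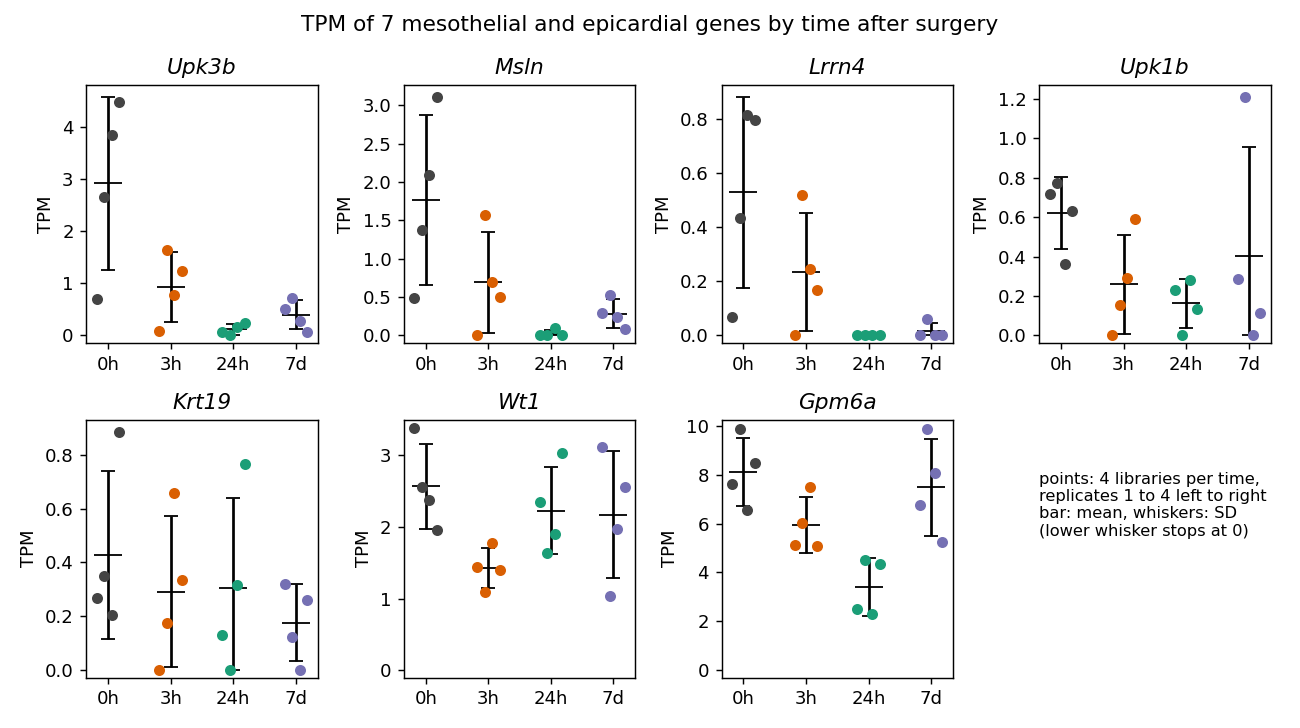
TPM of the 7 genes (y axes, each with its own scale) against time after surgery (x axes), with 1 point per library, a bar at the mean of 4 libraries and whiskers of 1 SD. Upk3b, Msln and Lrrn4 were lowest at 24h and widely spread at 0h, Gpm6a was lowest at 24h and near its 0h level at 7d, and Wt1 stayed between 1.04 and 3.38 TPM.

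Upk1b and Krt19 were the other surface and cytoskeletal members, and both were near the limit of detection. Upk1b encodes a tetraspanin that partners uroplakins in the bladder (chr16:38773184-38800328, - strand, GRCm38). It measured 0.717, 0.774, 0.361 and 0.629 TPM at 0h and 0, 0.154, 0.293 and 0.592 TPM at 3h. The 24h libraries held 0.233, 0, 0.281 and 0.136 TPM, and the 7d libraries 0.285, 1.21, 0 and 0.115 TPM. All 24h values lay below all 0h values, and the highest of the 16 libraries was 7d replicate 2. With 17 counts at 0h and 5 at 24h, the ratio of depth-scaled counts was 3.49 (counting interval 1.24 to 12.1). The log2 fold change at 24h of -1.60 ± 0.86 did not pass (edgeR with no filter, adjusted p = 0.281). Permuting its log2(TPM + 1) values exactly gave p = 0.0286 (two-sided, unadjusted), the smallest that 70 orderings of 4 against 4 libraries allow.

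Krt19 encodes a keratin of simple epithelia and mesothelium (chr11:100140810-100148665, - strand, GRCm38). It measured 0.269, 0.349, 0.203 and 0.886 TPM at 0h, and 0, 0.174, 0.659 and 0.334 TPM at 3h. At 24h it was at 0.131, 0, 0.317 and 0.766 TPM, and at 7d at 0.321, 0.124, 0 and 0.259 TPM. The 4 times overlapped throughout, with 10, 7, 8 and 5 counts in all. Its log2 fold change at 24h was -0.23 ± 0.84 (edgeR with no filter, adjusted p = 0.978), an error wide enough to hide a change of the size seen for Gpm6a.

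Wt1, the transcription factor of the group (chr2:105126529-105173616, + strand, GRCm38), had a different time course. It is made by epicardial cells and has also been described in endothelial cells of injured hearts. At 0h its 4 libraries held 3.38, 2.56, 2.37 and 1.96 TPM, and at 3h 1.44, 1.09, 1.78 and 1.40 TPM. Levels were 2.35, 1.63, 1.90 and 3.03 TPM at 24h and 3.12, 1.04, 1.97 and 2.56 TPM at 7d. Every 3h library lay below every 0h library, and the later times overlapped both. Summed counts were 209, 116, 198 and 208. The log2 fold change was -0.67 ± 0.30 at 3h (edgeR adjusted p = 0.176), 0.02 ± 0.27 at 24h (edgeR adjusted p = 0.973) and -0.19 ± 0.27 at 7d (edgeR adjusted p = 0.776). With the 0.5 TPM filter, Wt1 passed at 3h in a fit of the 0h and 3h libraries alone (edgeR adjusted p = 0.0341) and in the exact permutation test of that gene (p = 0.0286, two-sided, unadjusted), and in no other alternative run.

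Gpm6a encodes a tetraspan membrane glycoprotein abundant in neurons and also found in epicardial and mesothelial cells. It lies at chr8:54954843-55060871 on the + strand (GRCm38), where 5 other annotated genes overlap it on the same strand, so its count could include or lose reads of these. Gpm6a was the most abundant of the 7 per length, at 7.61, 9.85, 6.57 and 8.49 TPM at 0h and 5.11, 6.01, 7.51 and 5.10 TPM at 3h. It measured 2.49, 4.52, 2.28 and 4.33 TPM at 24h and 6.76, 9.87, 8.06 and 5.23 TPM at 7d. In TPM the 24h libraries were below all 12 libraries of the other times, while in CPM they overlapped those of 7d. At 24h Gpm6a fell by 1.05 ± 0.25 on the log2 scale against 0h (edgeR adjusted p = 0.00667), and rose from 24h to 7d by 1.03 ± 0.25 (edgeR adjusted p = 0.0111). Its 7d level differed from 0h by -0.02 ± 0.22 (edgeR adjusted p = 0.984). A list of 6 nerve and Schwann cell markers summed to a mean of 8.02 ± 3.07 TPM at 0h and 8.18 ± 1.40 TPM at 24h, and 0 of its 3 tested genes passed at 24h by edgeR.

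By mean TPM the times ran 0h, 3h, 7d, 24h from high to low for Upk3b, Msln and Lrrn4, and 0h, 7d, 3h, 24h for Upk1b and Gpm6a. Krt19 ran 0h, 24h, 3h, 7d and Wt1 0h, 24h, 7d, 3h, with no step past the test for either gene or for Upk1b. Not all of these steps exceeded the spread. Of the neighbouring steps, none of those between 0h and 3h passed the test for Upk3b, Msln or Lrrn4, nor did those between 3h and 7d or 7d and 24h. For Gpm6a the step between 7d and 24h passed, and those between 0h and 7d and between 7d and 3h did not. Its step from 3h to 24h, where the libraries did not overlap, was -0.77 ± 0.26 (edgeR adjusted p = 0.072) and passed by DESeq2 (adjusted p = 0.0474) and without 24h replicate 4 (edgeR adjusted p = 0.0312).

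**Figure D2:**
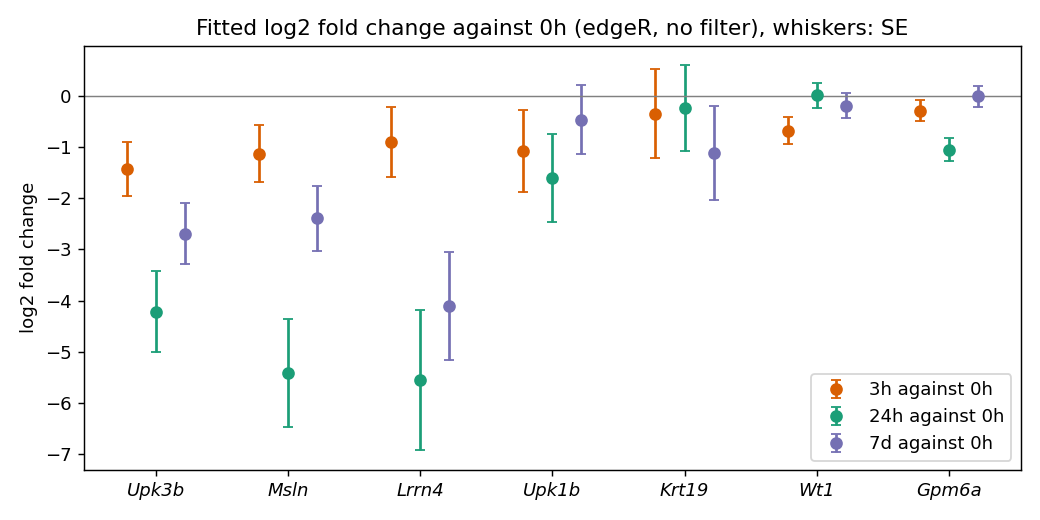
Log2 fold change against 0h (y axis) of each gene (x axis) at 3h, 24h and 7d, from the edgeR fit with no filter on low genes, with whiskers of 1 SE; the 3 comparisons share the 0h libraries. For Upk3b, Msln and Lrrn4 the 24h point was the lowest of the 3 (Lrrn4's rests on 0 counts at 24h), and the Wt1 points lay between -0.68 and 0.02.

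Counted together, 3 of the 4 members tested in the main fit were lower at 24h than at 0h, and none was higher, where 18.1% of all 16866 genes tested were called in either direction. Upk3b and Msln entered that fit only through their 0h level (their mean without 0h was 0.482 and 0.335 TPM), so this share is no support. With no filter, 4 of 7 were lower at 24h, against 9.06% of 29424 genes called. By range alone, 5 of 7 had all 24h libraries below all 0h libraries, Upk3b, Upk1b, Msln, Lrrn4 and Gpm6a, where 11.0% of genes with a count did so. At 7d against 0h the main fit called 1 of 4 members (Upk3b; 1.12% of all genes) and the fit with no filter 2 of 7 (Upk3b and Lrrn4; 0.982%), and 1 of 7 did not overlap in TPM (Lrrn4; 5.57% of genes lower) but 0 of 7 in CPM.

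At 3h against 0h none of 4 members was called in the main fit (5.31% of all genes) and none of 7 with no filter (3.15%) by edgeR, while 2 had an unadjusted p under 0.05 in each fit. DESeq2 and limma also called 0 at 3h, and 1 of 7, Wt1, lay wholly below 0h, as did 12.5% of genes. Between 24h and 3h edgeR called 0 of 4 (7.78% of genes) though the unadjusted p of 4 was under 0.05, and DESeq2 called 3. The 4 did not move one way: Upk3b, Msln and Gpm6a were lower at 24h, and Wt1 was higher, by 0.69 ± 0.30. Between 7d and 3h the count was 0 of 4 by edgeR, DESeq2 and limma (4.87% of genes), with 0 of these 4 at an unadjusted p under 0.05. With no filter 1 member was under it, Lrrn4 (edgeR unadjusted p = 0.0122, adjusted p = 0.185). From 24h to 7d 1 of 4 was called, Gpm6a (8.44% of genes), which was also the 1 of 7 with no filter (4.37%). Over the 4 times jointly, Upk3b, Msln and Gpm6a changed (edgeR adjusted p = 0.00121, 0.00555 and 0.0139; 20.7% of genes called), and with no filter Lrrn4 did as well (edgeR adjusted p = 0.00241; 12.2%). Gpm6a was lost from the joint test without 24h replicate 1 (edgeR adjusted p = 0.0521) and with Myl7 as a covariate (0.0712), and Lrrn4 by limma (adjusted p = 0.0585).

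Upk3b, Msln and Lrrn4 had much of their order among libraries of one time in common at 0h, 3h and 7d, but not at 24h. At 0h both Upk3b and Msln were highest in replicate 4, then 3, 2 and 1, and Lrrn4 was highest in replicate 3 and likewise lowest in replicate 1. At 3h all 3 genes were highest in replicate 2 and lowest in replicate 1, where Msln and Lrrn4 had no count. Replicates 3 and 4 at 3h stood in the other order for Upk3b than for Msln and Lrrn4. At 7d replicate 2 was highest for each. At 24h, with 6, 1 and 0 counts in all, Upk3b was highest in replicate 4, where Msln had no count. After the mean of each time was subtracted from log2 CPM (counts scaled to library size), Pearson's r over the 16 libraries was 0.90 between Upk3b and Msln (Spearman 0.86), 0.93 between Msln and Lrrn4 (0.82) and 0.84 between Upk3b and Lrrn4 (0.73). Wt1 and Msln gave -0.52 (Spearman -0.58), and Gpm6a and Upk3b 0.26 (0.19). These describe libraries that share a depth per library and, for the low genes, few counts.

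**Figure D3:**
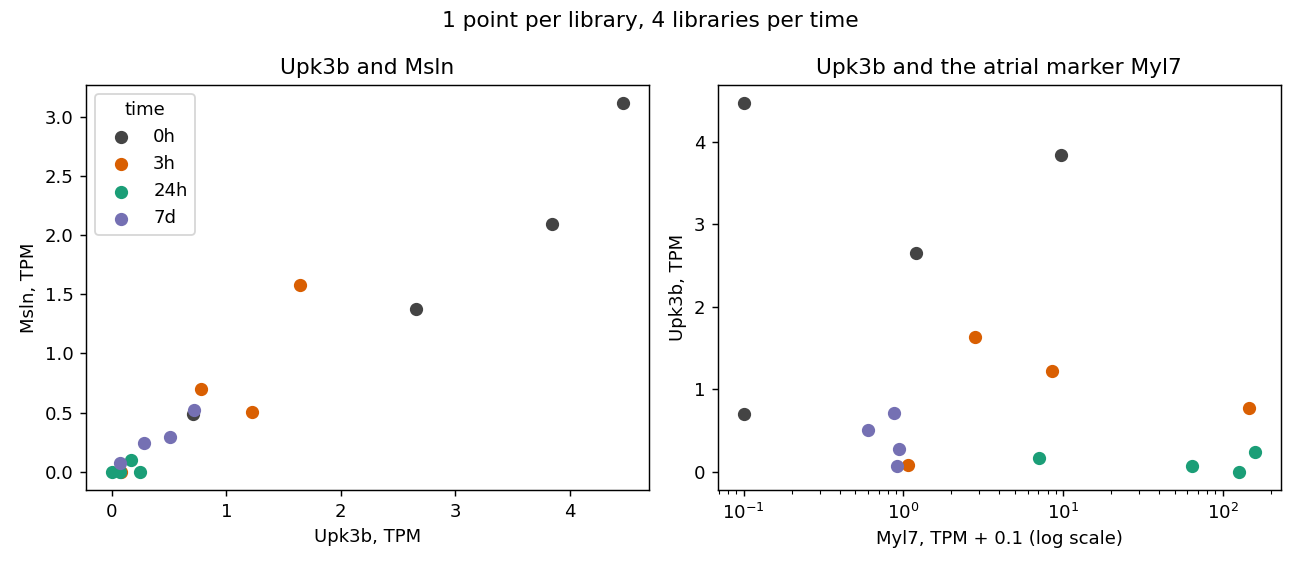
Left, Msln TPM (y axis) against Upk3b TPM (x axis), and right, Upk3b TPM (y axis) against TPM + 0.1 of the atrial marker Myl7 (x axis, log scale), with 1 point per library and colours for the 4 times. Msln follows Upk3b from the 24h libraries near 0 up to 0h replicate 4 at 4.47 and 3.11 TPM, and the 24h libraries lie low on Upk3b from 6.97 to 159 TPM of Myl7.

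By the mean of the 7 standardised and time-centred levels, the genes most like the group among 16830 searched were Gm44037 (Pearson's r = 0.87 over 16 libraries), A530017D24Rik, Gm6937, Gm7729, Fam161b, Gm6444, Ap4e1, Vps26a, Lman2l and Clca3a1 (0.81). None of these belongs to the lists of mesothelial genes used here. The search took only genes of the main fit, so scarce listed genes such as Muc16 and Bnc1 could not appear. The best of 16830 genes over 16 libraries can reach a high r by chance, which was not tested. None of the 10 was lower at 24h by the edgeR threshold, and Fam161b was higher, by 0.84 on the log2 scale (edgeR adjusted p = 0.00189).

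A wider list of 26 mesothelial and epicardial genes did not move one way. Of 19 tested, 5 were lower and 3 higher at 24h than at 0h, where 18.1% of all genes were called, with a median log2 fold change of -0.11 beside -0.01 over all genes. At 3h 1 was lower and none higher (5.31% of all genes called, about 1 in 19), and at 7d none passed against 0h by edgeR (1, Muc16, did with no filter). The 5 that fell at 24h were Nkain4, an epicardial and mesothelial marker, Pkhd1l1, a large receptor-like protein, Sema3d, a guidance cue of the developing epicardium, Efemp1, a matrix protein, and Ezr, the ezrin linker of membrane and actin, which was lost with no filter (edgeR adjusted p = 0.0535). Nkain4 went from 2.46 ± 1.38 to 0.467 ± 0.204 TPM, and fell by 2.05 ± 0.67 on the log2 scale (edgeR adjusted p = 0.0365). Pkhd1l1 went from 1.37 ± 0.39 to 0.421 ± 0.050 TPM (SD, n = 4; edgeR adjusted p = 0.000314) and was the gene also lower at 3h (edgeR adjusted p = 0.0364). Efemp1 dropped by 0.86 ± 0.17 and rose again by 1.12 ± 0.16 from 24h to 7d (edgeR adjusted p = 0.00147 and 0.000136).

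Muc16, the mucin that Msln binds, was too scarce for the main fit, with 2, 20, 12 and 11 counts in the 0h libraries. It had 5 counts over all 3h libraries, 1 at 24h and 4 at 7d. With no filter Muc16 was lower than at 0h at 3h, 24h and 7d (edgeR adjusted p = 0.024, 0.000947 and 0.0134). Its centred r was 0.65 with Msln and 0.61 with Upk3b over 16 libraries. Bnc1, a transcription factor of mesothelium and other epithelia, had 13 counts at 0h, none at 3h or 24h and 2 at 7d. With 24h set at a floor of 3 counts over the group, 0h was 4.45-fold higher (edgeR with no filter, adjusted p = 0.0319). The counting error at 0h is left out of that fold as well.

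The 3 that rose at 24h are secreted or junctional proteins. Genes of the list that fell and those that rose may both come from other cells as well, and their source was not tested. Cldn15, a claudin of tight junctions, went from 5.02 ± 2.21 to 11.9 ± 4.8 TPM, a rise of 1.53 ± 0.32 on the log2 scale (edgeR adjusted p = 0.0029). Prg4, the lubricant proteoglycan of serous and joint surfaces, went from 7.62 ± 1.75 to 16.4 ± 5.6 TPM (edgeR adjusted p = 0.00223). Rarres2, the chemerin precursor, rose by 0.46 ± 0.15 (edgeR adjusted p = 0.0315). Cldn15 and Prg4 were lower again at 7d than at 24h, by -1.70 ± 0.31 and -1.45 ± 0.25 (edgeR adjusted p = 0.00173 and 0.00146). The list's most abundant genes per length were C3, Igfbp6, Ezr and Rarres2, at mean levels of 89.0, 87.4, 59.2 and 43.7 TPM at 0h. C3, the complement component, and Krt18, a keratin, were higher at 7d than at 3h (edgeR adjusted p = 0.0441 and 0.0473), and neither passed with no filter (0.107 and 0.109). Igfbp6 did not pass in any comparison. Factors that act with Wt1 in the embryonic epicardium, named here after their values were seen, did not pass at 24h. Tbx18 was at 3.86 ± 0.66 TPM at 0h and 2.80 ± 0.45 at 24h (edgeR adjusted p = 0.416), and Tcf21 at 21.6 ± 3.6 and 19.4 ± 4.8 (edgeR adjusted p = 0.866).

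**Figure D4:**
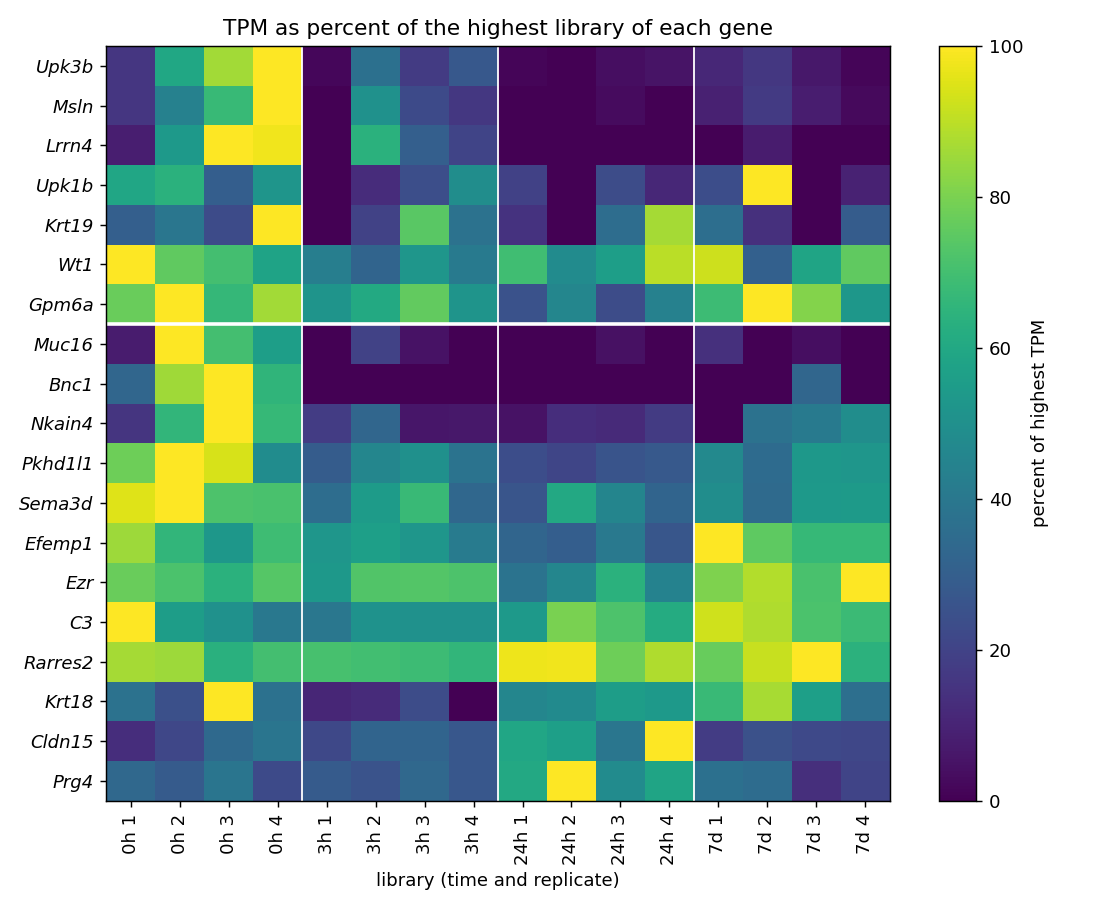
TPM of the 7 genes (above the white line) and 12 further genes of the wider list (below it) as percent of each gene's highest library, with the 16 libraries in columns by time and replicate. Upk3b, Msln, Lrrn4, Muc16 and Bnc1 are dark at 24h, while Cldn15 and Prg4 have their highest library there.

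Some markers of other cells were called at 24h as well, in a comparison where 18.1% of all genes were. The atrial marker Myl7, from tissue next to the ventricle, was at 0, 1.10, 9.59 and 0 TPM at 0h, 0.977, 2.73, 146 and 8.39 TPM at 3h, 63.8, 126, 6.97 and 159 TPM at 24h, and 0.504 to 0.844 TPM at 7d. Of the 6 atrial markers 5 were tested and 3 were higher at 24h. The summed level of the 6 ran from 454 to 1466 TPM at 0h and from 480 to 1006 TPM at 24h. Most of that sum was Nppa, at 452 to 1450 TPM at 0h and 469.4 to 834.5 TPM at 24h. Myl4 ran from 1.45 to 3.09 TPM at 0h and from 2.28 to 24.1 TPM at 24h. Sln ran from 0 to 2.575 TPM at 0h and from 0.668 to 39.3 TPM at 24h. In the 24h library with the least Myl7, replicate 3, Upk3b was at 0.166 TPM, from 2 counts. At 7d, with Myl7 within its 0h range, Upk3b was at 0.393 ± 0.280 TPM. With Myl7 as a covariate the 24h log2 fold changes were -4.65 for Upk3b, -5.60 for Msln and -1.43 for Gpm6a. Without it they were -4.22, -5.43 and -1.05. None passed with the covariate (edgeR adjusted p = 0.0538, 0.105 and 0.0777), nor did Lrrn4 (0.0932). Myl7 was itself mostly higher at 24h, so its part and that of time cannot be told apart in this design. Gpm6a passed with that covariate when no filter was used (edgeR adjusted p = 0.019).

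In the comparison of 24h with 0h, 18.1% of all genes tested were called. Of 6 fibroblast markers, 3 were lower and 1 higher at 24h (edgeR), with summed ranges of 853 to 1199 TPM at 0h and 736 to 905 TPM at 24h. Of 5 endothelial and endocardial markers 2 were lower, Npr3 and Kdr, with summed ranges of 296 to 409 and 189 to 294 TPM. Adipocyte markers summed to between 1.09 and 30.6 TPM at 0h and between 1.39 and 22.6 TPM at 24h, none of 3 tested being called by edgeR. Hepatocyte markers, highest at 3h (3.21 to 74.1 TPM), ran from 0 to 1.01 TPM at 0h and from 1.99 to 12.5 TPM at 24h. In 3h replicate 2, which held the most albumin, Upk3b, Msln and Lrrn4 had their highest 3h level. In 3h replicate 1, with no albumin count, they had their lowest. The part of these cell types, and of what was dissected with the ventricle, in the levels of the 7 genes was not tested.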

How the data were processed

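Polyadenylated RNA from left ventricle was isolated with TRIzol, cleared of DNA and built into strand-specific (NEBNext directional) libraries, per the labels' protocols. The submitters' processing notes name cutadapt, STAR and mm10. Counting tool, strand setting and versions: not given in the sources used here. Raw counts and TPM per gene were used as deposited by the authors. The deposited FPKM and gene length columns were not used for tests. Columns named PMI were matched to the titles by time and number.

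Counts were fitted with edgeR 4.0.16 (R 4.3.3; quasi-likelihood, robust, TMM scaling) over all 16 libraries, for genes with a mean of 0.5 TPM or more, and again for all 29424 genes with a count. Adjusted p-values are Benjamini-Hochberg over all genes of a comparison, with a threshold of 0.05. The scripts were tested on simulated data. The alternatives were DESeq2 1.42.0, limma 3.58.1 on log2(TPM + 1), no filter, no robust option, a replicate block, Myl7 as a covariate, the compared times alone, each library left out in turn and, added after seeing the data, edgeR's earlier dispersion estimates and, for overlaps, TMM-scaled CPM. Count intervals are exact 95% and cover counting error only. Correlations used log2 CPM with a prior count of 2.

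The members and gene lists were chosen with earlier results of these data known. The text names all 7 members, each gene of the wider list past the threshold in any comparison and its 4 most abundant, and the 10 genes most alike. Coordinates are from GENCODE M21 (GRCm38), matched by identifier for 90.7% of 57143 genes.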

Additional observations from a re-analysis of the deposited data

Results flagged for a closer look

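Over the 7 genes and 18 others, 97 groups of 4 libraries had some spread. In 10 of these, 1 library stood far from the other 3. The rule gives about 1 group in 20 by chance for continuous values only. A group with counts in 1 library alone always meets it, so no excess can be read from the 10 cases. For the 7 genes these were single counts. Msln at 24h was at 0.0958 TPM in replicate 3 and 0 in the others, and Lrrn4 at 7d was at 0.0619 TPM in replicate 2 and 0 in the others. Muc16 at 24h was at 0.0111 TPM in replicate 3 and Bnc1 at 7d at 0.107 TPM in replicate 3, with none elsewhere at those times. At 3h, replicate 1, which was lowest for Upk3b, was also apart from the others for Ezr (44.1 TPM, the next at 59.7) and C3 (57.1 TPM, the next at 73.0). Myl7 was highest in replicate 3 both at 0h (9.59 TPM, the next at 1.10) and at 3h (146 TPM, the next at 8.39). Alb was at 0.281 TPM in 0h replicate 4 and at 0.196 TPM in 7d replicate 2, and at 0 in the other libraries of those times.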

How the results depend on the processing

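The 24h count of members lower than at 0h was 3 of 4 (4 of 7 with no filter) on leaving out any library. With Myl7 as a covariate it was 0 (1 with no filter), and the genes called fell to 184 (3h against 0h), 89 (24h against 0h), 552 (24h against 3h), 250 (7d against 3h), 24 (7d against 24h) and 937 (any change); 7d against 24h then called 0 members. In the compared times alone, members called were 1 (2 with no filter) at 3h, 0 (2, Msln and Lrrn4) at 7d, 1 (2) for 24h against 3h and 0 (1, Gpm6a) for 7d against 24h, and genes called 3198, 360, 837 and 376. For 7d against 0h, members called were 0 with the earlier dispersion estimates and by limma (0 with no filter), 2 with no filter and 1 by DESeq2 with no filter, and genes called 454 by DESeq2, 57 by limma and 289 with no filter. Limma called 493 genes for 7d against 3h. For 3h against 0h with no filter, 1 member was called without the robust option and with the earlier estimates. For 24h against 3h, members called were 1 (4 with no filter) with the earlier estimates, 3 (2) by DESeq2, 3 with no filter and no robust option, and 1 with no filter and Myl7. In CPM in place of TPM, an alternative chosen after seeing the data, 0 members did not overlap for 7d against 0h and 0 for 7d against 24h. The cause was not tested.

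Leaving out 1 library gave 300 to 1347 genes at 3h (300 without 0h replicate 1, 321 to 593 without any other 0h or 3h replicate), 1617 to 4349 at 24h (1617 and 1795 without 24h replicates 1 and 4, 1790 without 0h replicate 1), 35 to 317 at 7d (lowest without 0h replicate 3), 766 to 1683 for 24h against 3h (without 24h replicate 1), 467 to 1069 for 7d against 3h (without 3h replicate 1) and 773 to 2460 for 7d against 24h (without 24h replicates 1 and 3). Members called were 0 to 1 at 3h, 0 to 2 at 7d (0 to 3 with no filter) and 0 to 2 for 24h against 3h (0 to 2; 2 without 0h replicate 1 or 3h replicate 1). Log2 fold changes that changed sign were never called. Those of Wt1 ran from -0.21 to 0.17 at 24h, -0.38 to 0.033 at 7d and -0.40 to 0.0201 for 7d against 24h. Those of Krt19 ran from -1.06 to 0.25 at 3h and -1.20 to 0.36 at 24h. For 24h against 3h Krt19 ran from -0.87 to 0.83, and for 7d against 24h from -1.27 to 0.0867. Upk1b ran from -0.92 to 0.23 for 24h against 3h, -1.05 to 1.37 for 7d against 3h and -0.51 to 1.53 for 7d against 24h. Gpm6a ran from -0.21 to 0.14 at 7d. Lrrn4 ran from 0.00 to 1.74 for 7d against 24h with no change of sign. Its 0.00 was without 7d replicate 2, where neither time had a count. Wt1 at 24h was -0.25 with Myl7 and -0.15 on log2(TPM + 1), by limma and permutation, and 0.0706 for 7d against 24h with Myl7. Krt19 with Myl7 was -0.32 for 24h against 3h and 0.15 for 7d against 24h. Of 1028 single-gene alternatives 952 kept direction and side of the threshold.

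Libraries with the same number did not deviate together over all tested genes (r from -0.12 to 0.06). A small shared deviation, or one limited to few genes, would not show in this measure, so pairing by number is not excluded. With the replicate block, 94 genes were called for 7d against 0h and 2 members (2 with no filter) for 24h against 3h. With no filter the block lost Lrrn4 at 7d (edgeR adjusted p = 0.0637) and gained Msln (0.0443). Depth limits the low members: with 5 to 17 counts at a time for Upk1b and Krt19, only large changes could be detected.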
